A study of Mus musculus with 4 samples.

Results

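Transcription factor genes that specify the heart or mark its chambers were followed on arrays of mouse heart and the tibialis anterior (TA), the fast shin muscle. The 10 genes are Tbx5, Tbx20, Tbx3, Gata4, Gata6, Nkx2-5, Hand1, Hand2, Irx4 and Hey2. They were chosen by name, and every probe set annotated to 1 of these symbols alone was taken, which gave 23 probe sets among the 45037 on the array, for 10 of the 18193 genes with a name. The mice were MG56-knockout and wild-type animals of the C57BL/6J background at postnatal day 9. MG56 is another name of Hhatl, whose protein sits in the membrane of the endoplasmic and sarcoplasmic reticulum. RNA of 3 knockout mice was pooled for each tissue, and wild-type RNA was pooled likewise, so each of the 4 groups (knockout heart, wild-type heart, knockout TA and wild-type TA) has 1 array. There is no replicate, no error can be given for any value below and no test was possible; every ratio compares pools of RNA. The sources used here do not say how the allele was made or how many wild-type mice were pooled.

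These factors form the core of the cardiac gene programme. T-box, GATA, NK2 homeobox and HAND proteins bind DNA together at the enhancers of cardiomyocyte genes, and many of them activate one another. Tbx5 acts in the atria, the left ventricle and the conduction system, Tbx3 keeps the pacemaker and conduction tissue from becoming working muscle, and Irx4 and Hey2 mark ventricular muscle. Skeletal muscle of the limb is built by a different set of factors, the myogenic basic helix-loop-helix (bHLH) proteins.

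A promoter of the RefSeq table (build GRCm38.p6) was used for 5 of the 10 genes: Tbx20, Nkx2-5, Hand2, Irx4 and Hey2. The search passed over any entry of the 10 genes on 1 chromosome, which the shares over the whole table include. The 250 bases before 1 annotated start were searched on both strands for the core letters bound by the factors' own families, and 3 promoters are shown because their genes stand for the main patterns below: Irx4 was past 1.5-fold in knockout heart, Tbx20 had the largest bound on its tissue ratio, and Hand2 was the only one of the 5 with matches for GATA and NK2 factors. The Irx4 stretch is chr13:73260247-73260496 on the plus strand, the Tbx20 stretch chr9:24774304-24774553 on the minus strand and the Hand2 stretch chr8:57320733-57320982 on the plus strand. Capitals mark matches to AGATAA for GATA factors or, with another first base, TGATAA, to AAGTG for NK2 homeobox factors, to GGTGTG for T-box factors and to TATAAA for the TATA box, read on either strand.
Irx4: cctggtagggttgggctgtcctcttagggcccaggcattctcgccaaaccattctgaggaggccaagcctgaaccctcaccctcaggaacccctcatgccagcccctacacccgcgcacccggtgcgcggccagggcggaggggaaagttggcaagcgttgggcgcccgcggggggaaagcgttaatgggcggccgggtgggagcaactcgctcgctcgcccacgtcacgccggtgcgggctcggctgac
Tbx20: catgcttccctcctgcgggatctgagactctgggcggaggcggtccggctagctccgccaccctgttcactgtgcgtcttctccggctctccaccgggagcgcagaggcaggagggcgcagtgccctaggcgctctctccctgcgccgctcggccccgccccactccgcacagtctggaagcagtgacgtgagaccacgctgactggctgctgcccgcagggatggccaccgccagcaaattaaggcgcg
Hand2: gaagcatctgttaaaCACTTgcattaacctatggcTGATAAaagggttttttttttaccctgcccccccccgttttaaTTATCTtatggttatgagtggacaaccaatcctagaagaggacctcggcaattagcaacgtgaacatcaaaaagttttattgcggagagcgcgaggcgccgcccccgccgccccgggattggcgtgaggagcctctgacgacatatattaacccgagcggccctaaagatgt

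The Hand2 stretch holds TGATAA at 215 bases before the start, TTATCT at 172, which matches for GATA factors on the opposite strand, and CACTT at 235, which matches for NK2 factors on the opposite strand. The last overlaps a CANNTG, the E-box letters read by bHLH proteins such as Hand2 itself. Irx4 and Tbx20 show no capitals, which says only that these letters are not in this window. A GATA match stood in 1 of the 5 promoters and in 16.6% of the 32851 promoters of the table, an NK2 match in 1 of 5 and in 40.7%, a T-box match in 1 of 5 (Hey2) and in 16.3%, an E-box in 3 of 5 and in 66.2%, and TATAAA in 0 of 5 and in 12.4%. The GC content was 68.8% for Tbx20 and for Irx4, 71.6% for Hey2 and 49.2% for Nkx2-5 and for Hand2, against a median of 52.4% (quartiles 45.2% and 61.2%) over the table. A match is a description of letters and not of binding.

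All 10 factors reached the floor, a signal of 101.3 that is the median of all signals of the 4 arrays, in wild-type heart, where 61.4% of all genes did. In TA almost none did: on the brightest probe set of each gene, 2 of 10, Tbx3 and Gata6, reached it in wild-type TA, against 61.6% of all genes, and 1, Gata6, in knockout TA. A second Tbx3 probe set, described below, reached it in both TA pools. Signals below the floor were raised to it for ratios, and a fold that rests on such a raised signal is a lower bound, written "at least". Signals of different probe sets are not compared with each other, since each probe set has its own brightness.

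**Figure D1:**
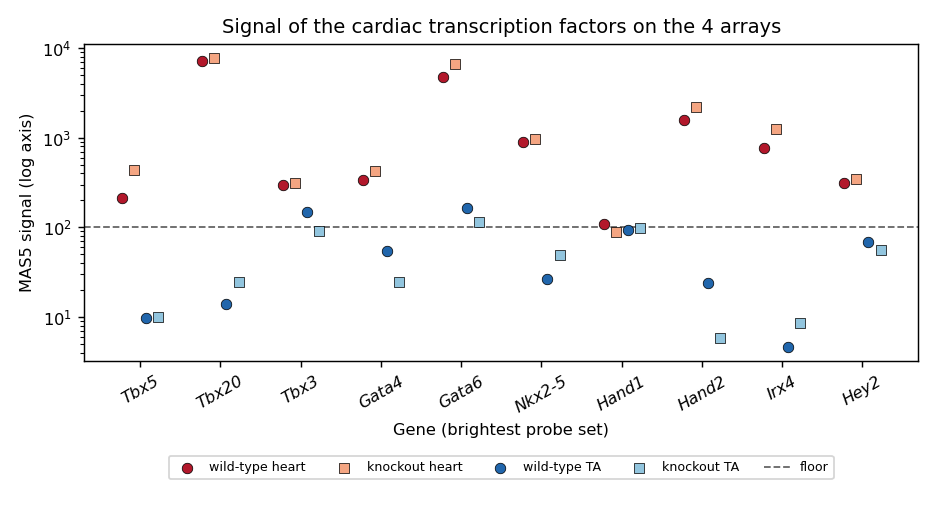
Signal of the brightest probe set of each of the 10 factors (horizontal axis) on each of the 4 arrays (vertical axis, MAS5 signal on a log axis; 1 point per array, no error bars because there is 1 array per group); the dashed line is the floor of 101.3. The heart points of 9 factors lie above both TA points of the same gene, while the 4 points of Hand1 lie together near the floor.

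In knockout heart 9 of the 10 factors lay higher than in wild-type heart and 1, Hand1, lay lower, where 49.7% of the 11452 measured genes lay higher. Most of these differences were small. Only 2 factors passed 1.5-fold, Tbx5 and Irx4, both higher, where 2.67% of all genes were at least 1.5-fold higher; 0 of 10 were at least 1.5-fold lower, where 4.19% of all genes were. The median log2 ratio of the 10 factors was 0.25, or 1.19-fold, and that of all measured genes was -0.002. Since heart RNA is a mixture, a change in the number of cells that carry a factor cannot be told apart from a change of RNA per cell.

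**Figure D2:**
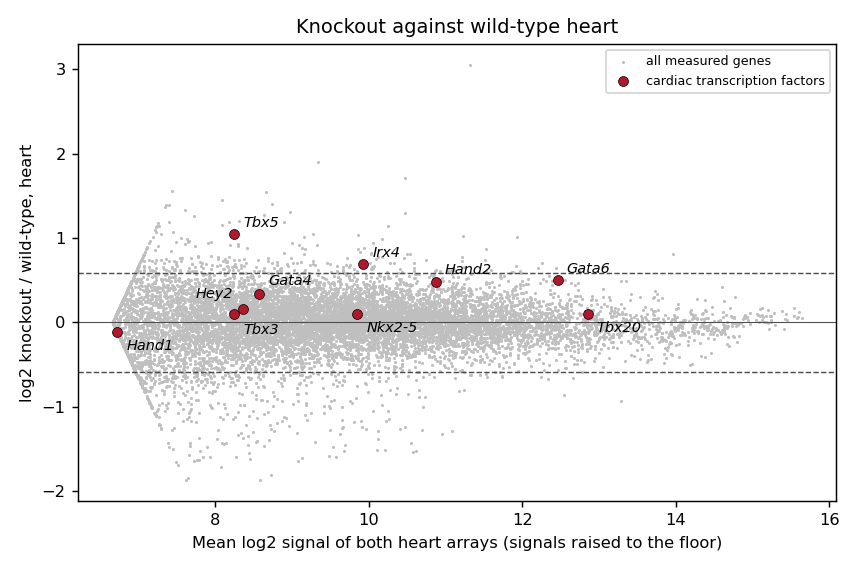
Log2 ratio of knockout over wild-type heart (vertical axis) against the mean log2 signal of both heart arrays (horizontal axis), with 1 grey point for each of 11452 measured genes and the 10 factors in red; dashed lines mark 1.5-fold. Tbx5 (log2 1.04) and Irx4 (log2 0.69) lie above the upper line, and Gata6 and Hand2 lie just under it among genes of brighter signal.

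The T-box genes differed from each other. Tbx5, the T-box activator that is dosage-sensitive in heart and forelimb development, gave 211 in wild-type heart and 435 in knockout heart on probe set 1425695_at, with 9.7 in wild-type TA and 10.1 in knockout TA. The knockout heart signal was 2.06-fold higher, the largest ratio of the 10 genes, and both TA arrays were far below either heart array. A second Tbx5 probe set, 1425694_at, read 82.2 and 134 in wild-type and knockout heart, so that the wild-type value was below the floor and the ratio at least 1.32-fold. Both probe sets point the same way, and both are dim: the brighter one lay at 2.08 times the floor in wild-type heart.

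Tbx20, which represses Tbx2 and keeps chamber muscle in its working state, was bright in heart and hardly differed by genotype on its brightest probe set. That probe set, 1453351_at, gave 7142 in wild-type and 7633 in knockout heart, 1.07-fold higher, and 13.9 and 24.7 in wild-type and knockout TA. The other Tbx20 probe sets were dimmer and had larger ratios in the same direction, 535 against 688 (1.29-fold) on 1425158_at and 130 against 182 (1.40-fold) on 1422219_a_at. For this gene the size of the ratio therefore depends on the probe set, and the direction does not.

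Tbx3, a T-box repressor of the conduction system, was nearly level between the heart pools. Probe set 1437479_x_at gave 293 in wild-type and 314 in knockout heart (1.07-fold higher), and 1448029_at gave 284 and 282 (1.01-fold lower), so its direction depends on the probe set. The remaining 3 probe sets of Tbx3 stayed under the floor on all 4 arrays.

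Both GATA factors, zinc finger proteins that open and activate cardiac enhancers, lay higher in knockout heart. Gata6 gave 4740 in wild-type heart and 6689 in knockout heart on 1425464_at, 1.41-fold higher. Its other probe sets read 1144 against 1752 on 1425463_at (1.53-fold) and 352 against 528 on 1443081_at (1.499-fold), so that the 3 probe sets of this gene lay within a narrow band around the 1.5-fold line, on both sides of it. Gata4 gave 340 and 427 on 1418863_at, 1.26-fold higher, and 105 and 115 on 1418864_at, 1.09-fold higher and close to the floor.

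Nkx2-5, the homeobox factor found in all working cardiomyocytes, was nearly level, with 892 in wild-type and 956 in knockout heart (1.07-fold higher) on its 1 probe set, 1449566_at. It had 26.6 in wild-type and 48.8 in knockout TA, both below the floor.

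The HAND genes encode bHLH factors, Hand1 being linked to the left ventricle and Hand2 to the right ventricle and to other heart lineages. Hand2 gave 1587 in wild-type heart and 2214 in knockout heart on 1436041_at, 1.40-fold higher, and its second probe set 1422221_at, at 81.9 and 111, gave at least 1.09-fold. Another, 1443854_at, was under the floor on all 4 arrays. Hand1 was hardly above the floor anywhere: 1417525_at read 109.5 in wild-type heart, 89.3 in knockout heart, 94.5 in wild-type TA and 97.1 in knockout TA. These 4 values do not separate heart from TA, so the data do not show Hand1 as a heart gene at this age, and its ratio of at least 1.08-fold lower in knockout heart is a difference at the floor.

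The ventricular factors differed in size. Irx4, a homeobox factor of the Iroquois family known for its expression in ventricular muscle, gave 768 in wild-type heart and 1236 in knockout heart on 1419539_at, 1.61-fold higher, with 4.7 and 8.6 in wild-type and knockout TA. Hey2, a transcriptional repressor downstream of Notch that marks the compact ventricular wall, gave 311 and 347 on 1418106_at, 1.12-fold higher, with 68.5 and 56.3 in TA. Each of these genes has 1 probe set, so there is no second reading of the Irx4 ratio.

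Over all 23 probe sets, 18 were measured in heart, of which 16 lay higher and 2 lower in the knockout pool. The probe sets past 1.5-fold were 3, all higher: 1 each of Tbx5, Irx4 and Gata6. No share over all probe sets was computed to set beside these counts. Over all measured genes, by brightest probe set, 49.7% lay higher and 2.67% were at least 1.5-fold higher. The other 5 probe sets did not reach the floor on any array. Probe sets of 1 gene share their RNA and their arrays and are not independent.

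**Figure D3:**
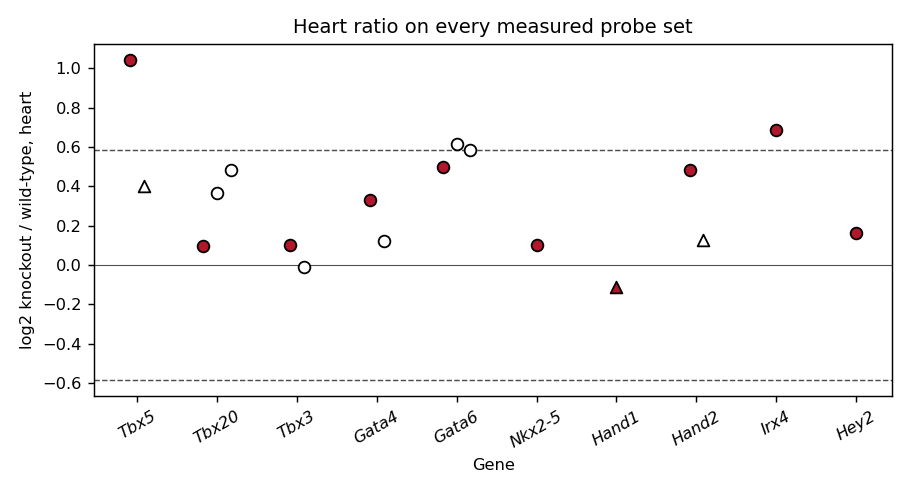
Log2 ratio of knockout over wild-type heart (vertical axis) on each of the 18 measured probe sets, grouped by gene (horizontal axis); filled symbols are the probe set that stands for the gene, open symbols the others, triangles are lower bounds and dashed lines mark 1.5-fold. The 3 Gata6 points lie between log2 0.50 and 0.61, while the Tbx5 points lie at 1.04 and 0.40, the latter a lower bound.

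Between the tissues, most of the factors were lower in TA than in heart. In wild-type mice 9 of the 10 were at least 1.5-fold lower in TA than in heart, where 18.0% of the 11872 measured genes were, and 5 of 10 were at least 5-fold lower, where 1.38% of genes were. None of the 10 was at least 1.5-fold higher in TA, where 14.5% of genes were. In the knockout pools 9 of 9 measured factors were at least 1.5-fold lower in TA, where 18.5% of genes were. Since these genes are known for their part in heart, the direction was known when they were chosen. A factor below the floor in TA was measured only through its heart signal and could not come out higher in TA. This held for all but Tbx3 and Gata6 in wild type and for all but Gata6 in the knockout, so these counts are no independent support. In TA, Gata4 read 53.9 in the wild type and 24.3 in the knockout and Hand2 23.7 and 5.8, all under the floor like the TA signals of Tbx5, Tbx20, Nkx2-5, Irx4 and Hey2 above. Tbx20 was at least 70.5-fold lower in wild-type TA than in wild-type heart, Gata6 29.2-fold, Hand2 at least 15.7-fold, Nkx2-5 at least 8.80-fold and Irx4 at least 7.58-fold. Gata4 was at least 3.35-fold lower, Hey2 at least 3.07-fold and Tbx5 at least 2.08-fold. The bounds reach no further because the heart signals of these genes are low, and they give no order. Tbx3 was 1.99-fold lower in TA and Hand1 at least 1.08-fold.

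**Figure D4:**
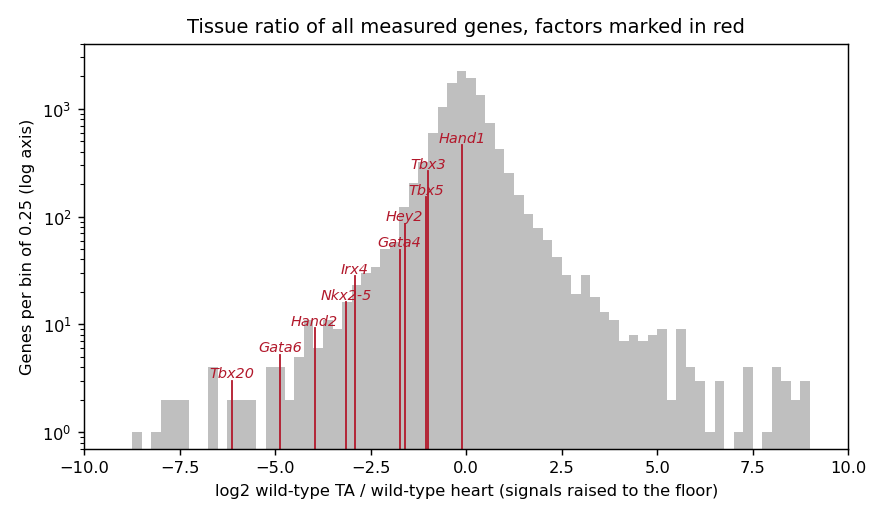
Number of genes (vertical axis, log axis) by log2 ratio of wild-type TA over wild-type heart (horizontal axis, bins of 0.25, signals raised to the floor), over 11872 measured genes, with the 10 factors marked in red (heights of the red lines have no meaning). Tbx20 (log2 -6.14) and Gata6 (log2 -4.87) lie in the thin left tail, and Hand1 (log2 -0.11) lies at the centre.

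In TA a genotype ratio could be formed for the 2 factors above the floor. Gata6 gave 162 in wild-type and 115 in knockout TA, 1.41-fold lower, and Tbx3 gave 147 and 90.7, at least 1.45-fold lower on 1437479_x_at, or 132 and 118 (1.12-fold lower) on 1448029_at. The other probe sets of Gata6 were under the floor in TA. Neither gene passed 1.5-fold with the floor used, where 4.44% of the 11528 measured genes were at least 1.5-fold lower, and 51.2% were lower by any amount. The Tbx3 value is set by the floor: with a 25th-percentile floor (26.8) or none, 1437479_x_at was 1.62-fold lower in knockout TA and passed 1.5-fold. Gata6 is thus not absent from the TA arrays, but its wild-type signal there is 1.60 times the floor. The other 8 factors were below the floor in both TA pools and have no genotype ratio there.

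The wider set of cardiac regulators gives the setting. Of 48 related factors (other T-box, GATA, Iroquois and Hey genes and partners such as MEF2, SRF, myocardin and the FOG proteins), 47 were on the array and 36 measured in heart. Of these, 1 passed 1.5-fold upwards, where 2.67% of all measured genes did, and 0 passed it downwards, where 4.19% did. Both counts are close to the background. The 1 was Zfpm1, which encodes the GATA cofactor FOG1, with 224 in wild-type and 357 in knockout heart (1.59-fold). By any amount, 27 of 36 lay above wild type and 9 below it, around a median of 0.11 (log2), where 49.7% of all measured genes lay above. Tbx2, the T-box repressor of the atrioventricular canal, was 1.49-fold higher (189 against 282), Myocd, which encodes the SRF coactivator myocardin, 1.44-fold (1018 against 1461), Irx1 1.41-fold and Irx2 1.33-fold. Foxp1 was 1.31-fold and Meis1 1.29-fold higher, and the Notch effector gene Hey1 was 1.30-fold lower (631 against 486), the opposite direction to Hey2. Zfpm2, the gene of FOG2, the main GATA4 partner in heart, was 1.17-fold higher.

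Genes listed as known targets of these factors were read in the same way. The list gives no direction of regulation, and Tbx3 and Hey2 are repressors. Of 25 known targets, 22 were on the array, 20 measured, and 0 of 20 were 1.5-fold different in either direction, where 6.86% of all measured genes were, so a count of 0 among so few genes is close to the background; 13 lay above and 7 below wild type around a median of 0.04 (log2). The atrial natriuretic peptide gene Nppa, a target of Tbx5, Gata4 and Nkx2-5, was 1.29-fold lower in knockout heart (25638 against 19919), and Nppb was 1.12-fold lower. The atrial myosin light chain gene Myl7 was 1.26-fold lower and the atrial growth factor gene Bmp10 1.36-fold lower, at 172 against 126. Popdc2 was 1.20-fold, Kcnd3 1.18-fold and the phospholamban gene Pln 1.10-fold higher, and the sodium-calcium exchanger gene Slc8a1 was 1.13-fold lower. Gja5, a further Tbx5 target, read 3.6 and 8.0 in the heart pools and gave no ratio.

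**Figure D5:**
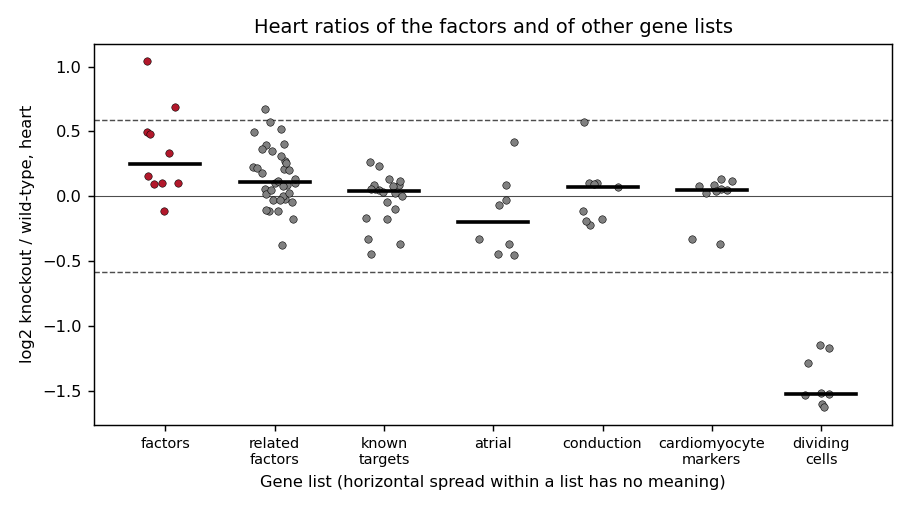
Log2 ratio of knockout over wild-type heart (vertical axis) for each measured gene of 7 lists (horizontal axis); points are genes, thick bars the list medians and dashed lines 1.5-fold. The medians are 0.25 for the 10 factors, 0.11 for related factors, 0.04 for known targets, -0.20 for atrial genes, 0.07 for conduction genes, 0.05 for cardiomyocyte markers and -1.52 for genes of dividing cells; lists share some members.

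Chamber and conduction genes were few. Of 8 measured atrial genes 0 passed 1.5-fold in either direction, which at the 6.86% over all genes says nothing particular about them, 2 lying above and 6 below wild type around a median of -0.20 (log2). Myl4, the atrial essential light chain gene, was 1.37-fold lower and Dkk3 1.34-fold higher, while Sln, Nr2f1 and Nr2f2 were within 1.06-fold. The ventricular light chain genes Myl2 and Myl3 were 1.02-fold and 1.03-fold higher, against 1.61-fold for Irx4. Of 9 measured conduction genes 0 passed 1.5-fold, again close to that share. The largest ratio was that of Tbx2, 1.49-fold higher as given above. The channel gene Cacna1g was 1.17-fold lower, the connexin gene Gjc1 1.14-fold, Cntn2 at least 1.13-fold and Shox2 1.08-fold lower. Tbx18, Tbx3 and Kcne1 were each 1.07-fold higher.

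Markers of the cells in the pools were read alongside. All 10 cardiomyocyte markers reached the floor in both heart pools, with a summed signal of 339572 in wild-type and 346672 in knockout heart (median log2 ratio 0.05). Of the 10, 8 lay above wild type and 2, Nppa and Myl7, below it. Several lay near the highest signal of the 4 arrays, 52162 for Tnnt2 in knockout heart. Whether such signals track differences in full was not tested, so the sums do not measure cardiomyocyte content. All 12 skeletal markers reached the floor in both TA pools against 3 of 12 in each heart pool, so the tissues match their labels. The lung markers Sftpc, Sftpb, Scgb1a1 and Nkx2-1 did not reach the floor in either heart pool. Sums of markers of non-muscle cells in wild-type and knockout heart were 74921 and 70444 for 7 fibroblast genes, 14193 and 14581 for 7 endothelial genes, 2075 and 2344 for 3 endocardial genes, 3013 and 2672 for 7 epicardial genes, 42824 and 39471 for 6 mural genes, 5401 and 5635 for 6 leukocyte genes and 33976 and 35684 for 3 adipocyte genes. Of these genes 2 passed 1.5-fold in heart, both lower in the knockout. Over all measured genes 6.86% passed it in either direction and 4.19% were lower, so so small a count says nothing particular about these lists. Aldh1a2, 1 of 7 measured epicardial genes, was 1.62-fold lower. The brown fat gene Ucp1, 1 of 2 measured adipocyte genes, read 327.9 in wild-type and 30.2 in knockout heart, at least 3.24-fold lower. The fat cell gene Adipoq was under the floor in both heart pools, and Fabp4, which endothelium also carries, made up nearly all of the adipocyte sum. Of the 3 skeletal markers measured in heart, Casq1, the calsequestrin gene of fast muscle, was 2.73-fold lower in knockout heart (565.5 against 206.9). The other 2 went the other way, Tnni2 being 1.06-fold and Ckm 1.09-fold higher. Of 8 genes of dividing cells 8 of 8 were at least 1.5-fold lower in knockout heart, where 4.19% of all measured genes were. Their sum was 10598 in wild-type and 3981 in knockout heart. Sex-linked transcripts also differed between the heart pools: the Y-linked gene Uty was 2.29-fold higher in the knockout, Eif2s3y 2.21-fold and Kdm5d 1.64-fold, and Xist was 1.30-fold lower. The part of cell division, sex, fat and skeletal muscle in the ratios of the 10 factors was not tested. The targeted gene Hhatl read 2110 in wild-type and 880 in knockout heart, and 5491 and 1078 in TA.

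The genes most like a factor were taken as those with the smallest Euclidean distance over the 4 log2 signals raised to the floor. For Tbx5 these were Cytl1 (distance 0.11, 215 and 451 in wild-type and knockout heart), Ppil6 (0.23) and Adamts6 (0.32). For Irx4 the nearest were the potassium channel gene Kcnq1 (0.40), Nkx2-5 itself (0.43) and Abcc8 (0.45). Tbx20 was nearest to Mylk3 (0.20), the cardiac myosin light chain kinase gene, to the desmosomal cadherin gene Dsg2 (0.33) and to Nppb (0.60). Gata6 was nearest to Corin (0.77), which encodes the protease that processes natriuretic peptides and which was 1.62-fold higher in knockout heart, and then to Dsg2 (0.78) and Mylk3 (0.83). For Irx4, Tbx20 and Gata6 a likeness over 4 arrays rests mainly on the contrast between tissues. For Tbx5 the heart genotype ratio (log2 1.04) was about as large as its wild-type tissue ratio with the TA signal raised to the floor (log2 -1.06). Its neighbours Cytl1, Ppil6 and Adamts6 were 2.10-fold, 2.22-fold and 1.59-fold higher in knockout heart. They were chosen by distance over these same signals, so their shared rise follows from the choice and is no support. The neighbours of Irx4, itself 1.61-fold higher, rose less: Kcnq1 1.09-fold, Nkx2-5 1.07-fold and Abcc8 1.20-fold.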

How the data were processed

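RNA of pooled mice was measured on 4 arrays, 1 for each genotype and tissue. The authors deposited linear signal intensities for each probe set, and the submitters' processing notes name MAS5. The sources used here give no version, scaling target, detection call or array build. The 4 trimmed means, leaving off 2% at both ends, ran from 496.35 to 496.83, and the values were used without further scaling. Probe sets were named from the platform annotation: 34945 had 1 symbol and were used, 932 had several and 9160 none. Of the 10 symbols studied, 10 matched RefSeq. A gene was represented by its brightest probe set over the 4 arrays. Signals were raised to a floor, the 50th percentile of all signals, and a gene was measured where at least 1 of the 2 arrays compared reached it. Ratios are log2, and 1.5-fold was counted. The number of arrays limits the precision.

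Named genes were the 10 factors; the genes past 1.5-fold in heart and then the largest ratios, up to 8, of each list of related factors, targets, atrial and conduction genes; and the 3 most alike genes of the 2 factors with the largest heart ratio and of the 2 brightest. Zfpm2, Gja5, Myl2, Myl3, Aldh1a2, Ucp1, Casq1, Tnni2, Ckm, Adipoq, Fabp4, Tbx1, Tbx4, Tbx15, Irx3, Irx5 and Mef2c were added after their values were seen. The members and lists were chosen with earlier results of these data known. Alternatives were other normalizations, floors and rules for probe sets. The computation of ratios was checked on simulated data with exact folds planted, which came back. These data held no noise and no planted signal below the floor. The check covers the arithmetic only, not the effect of raising signals to the floor. Python 3.11.15, numpy 2.4.6 and pandas 2.3.3 were used.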

Additional observations from a re-analysis of the deposited data

Results flagged for a closer look

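On their brightest probe sets, both of the 2 factors measured in both tissues had genotype ratios of opposite sign in TA and heart. The share of all genes with opposite signs was not computed. Over all measured genes 49.7% lay higher in knockout heart and 51.2% lower in knockout TA, so 2 of 2 does not set these factors apart. Gata6 was lower in knockout TA and higher in knockout heart, and its log2 ratio in TA minus that in heart was -0.99. For Tbx3 the same difference was -0.64, with a knockout TA signal that was raised to the floor, so its size is a bound. On the Tbx3 probe set above the floor on all 4 arrays, 1448029_at, the log2 ratios were -0.17 in TA and -0.01 in heart, of the same sign, so the opposite signs of Tbx3 depend on the probe set. With 1 array per group the difference between tissues was not tested, and no single ratio here passed 1.5-fold with the floor used.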

How the results depend on the processing

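In heart 2 factors passed 1.5-fold under every alternative tried except a 75th-percentile floor (471.5), where 1 did because only 5 factors were bright enough to be measured and Tbx5 was not among them, and the median over probe sets, where Gata6 joined at a log2 ratio of 0.61. The heart log2 ratio ran from 0.95 to 1.04 for Tbx5 where it was measured, from 0.67 to 0.69 for Irx4, from 0.50 to 0.61 for Gata6 and from 0.13 to 0.49 for Hand2, and that of Tbx3 from -0.01 to 0.10. In TA the count past 1.5-fold for genotype, 0 with the floor used, was 3 under a 25th-percentile floor (26.8) and 6 with no floor. One of them in both cases was Tbx3, at a log2 ratio of -0.69, whose wild-type signal is above the floor used; the others, Gata4 and Nkx2-5 and, with no floor, also Tbx20, Hand2 and Irx4, were below it on both TA arrays. The number of factors at or above the floor in TA was 6 under the 25th-percentile floor, 0 under the 75th and 0 with the median over probe sets. The count at least 1.5-fold lower in wild-type TA than in heart was 5 of 5 measured under the 75th-percentile floor and 6 of 7 measured with the median over probe sets, where Tbx5 fell short at a log2 ratio of -0.53. Of 157 single ratios recomputed, 153 kept their side of 1.5-fold, 3 moved past it and 1 fell short of it. In 1 the sign changed, Tbx3 in heart without the _s_at, _x_at and _a_at probe sets (log2 -0.01). No paired analysis was possible because each group has 1 array.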

Other observations

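The related factors were more often heart-high than TA-high. Of 40 measured in wild-type mice, 22 were at least 1.5-fold lower in TA than in heart, where 18.0% of all genes were, and 7 were at least 1.5-fold higher, where 14.5% were. The list was drawn up as cardiac regulators, so the heart-high direction was known when it was chosen. Among those past 1.5-fold, Myocd, Foxc2, Irx1, Irx2, Irx3, Irx5, Meis2, Tcf21 and Wt1 were below the floor in wild-type TA. Tbx1, Tbx4 and Tbx15 were below it in wild-type heart. The floor alone fixes the direction of such genes, so these counts are no independent support. The related factors described next were chosen after their values were seen. Tbx15, a T-box gene known from limb skeleton and fast muscle fibres, gave 3652 in wild-type TA and 11.2 in wild-type heart, and Tbx1, known from pharyngeal and head muscle, gave 1554 and 51.3. Tbx4, the T-box gene of the hindlimb, gave 325 in wild-type TA and 2.7 in wild-type heart. Their knockout TA signals, 3780, 1505 and 321, were close to the wild-type ones. Irx3 and Irx5 had the heart-high pattern of Irx4: Irx3 gave 3691 in wild-type heart and 83.4 in wild-type TA, and Irx5 gave 601 and 64.8. Mef2c, a factor shared by heart and skeletal muscle, gave 10791 in wild-type TA and 1320 in wild-type heart.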
